A study of Rattus norvegicus with 4 samples.

Results

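Single-cell RNA sequencing of rat dorsal root ganglia was used to describe 9 genes of potassium, glutamate, coupling, water and lipid handling in satellite glia, namely Kcnj10, Atp1b2, Slc1a3, Slc1a2, Glul, Gja1, Gjc3, Aqp4 and Fabp7. They were chosen by name, and each matched 1 of the 25629 features of the count tables by its symbol. The tissue was the ipsilateral L4-L6 ganglia, which house the cell bodies of sensory neurons of the hind limb, of wild-type male SD (Sprague-Dawley) rats. Libraries CPIP 1 and CPIP 2 came from rats of the CPIP model, and libraries Sham 1 and Sham 2 came from sham rats. CPIP is not spelled out in the labels and stands in the field for chronic post-ischaemia pain, a model in which the blood supply of a hind limb is stopped and then restored. Each library was a biological replicate that pooled ganglia of 3 rats, so differences between single animals were averaged before capture. Neither the rats' age nor the time since the procedure was stated in the labels. Neither group carried a transgene or received a drug, as far as the labels state.

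Satellite glia are the cells that wrap each sensory neuron cell body in a thin sheath. In textbook accounts they take up the potassium and the glutamate that neurons release, pass potassium and small molecules to their neighbours through gap junctions, and turn glutamate into glutamine. Kcnj10 encodes the inwardly rectifying channel through which glia take up potassium, and Atp1b2 encodes a glial beta subunit of the sodium-potassium pump. Slc1a3 and Slc1a2 encode the glial glutamate transporters GLAST and GLT-1, and Glul encodes glutamine synthetase. Gja1 and Gjc3 encode connexins, the subunits of gap junction channels. Aqp4 encodes the water channel of astrocyte endfeet, and Fabp7 encodes the fatty acid binding protein of brain and ganglion glia.

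The start regions of 4 of these genes are printed for reference, because they mark the opposite ends of the glial levels: Kcnj10, Slc1a3 and Fabp7 were highest in satellite glia and Gjc3 in myelinating Schwann cells. Each runs 5′ to 3′ on the strand of its gene over 300 bases, 250 before and 50 from the annotated start, taken from RefSeq on build GRCr8. Capitals mark ACAAAG, a core of the SOX factor motif. All 9 members had a start region in that table, with 14 regions among them. Kcnj10 lies on chr13:87334260-87334559 (plus strand), Slc1a3 on chr2:59557759-59558058 (minus strand), Fabp7 on chr20:37669356-37669655 (plus strand) and Gjc3 on chr12:22024518-22024817 (minus strand).
Kcnj10: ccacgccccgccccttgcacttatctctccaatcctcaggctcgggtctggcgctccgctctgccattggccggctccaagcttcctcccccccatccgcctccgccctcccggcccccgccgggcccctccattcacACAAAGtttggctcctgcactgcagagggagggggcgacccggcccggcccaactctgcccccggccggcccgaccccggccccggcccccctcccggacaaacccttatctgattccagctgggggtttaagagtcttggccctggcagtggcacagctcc
Slc1a3: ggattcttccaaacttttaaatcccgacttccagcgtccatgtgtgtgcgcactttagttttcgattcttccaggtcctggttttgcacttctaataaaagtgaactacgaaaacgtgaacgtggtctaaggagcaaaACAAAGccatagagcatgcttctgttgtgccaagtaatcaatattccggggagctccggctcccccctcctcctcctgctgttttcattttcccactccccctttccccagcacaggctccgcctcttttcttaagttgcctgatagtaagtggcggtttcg
Fabp7: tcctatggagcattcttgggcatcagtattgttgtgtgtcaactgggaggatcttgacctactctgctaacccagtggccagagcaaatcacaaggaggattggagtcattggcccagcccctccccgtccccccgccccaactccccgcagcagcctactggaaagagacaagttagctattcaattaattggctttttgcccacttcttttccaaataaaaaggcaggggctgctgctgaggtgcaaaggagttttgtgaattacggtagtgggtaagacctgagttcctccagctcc
Gjc3: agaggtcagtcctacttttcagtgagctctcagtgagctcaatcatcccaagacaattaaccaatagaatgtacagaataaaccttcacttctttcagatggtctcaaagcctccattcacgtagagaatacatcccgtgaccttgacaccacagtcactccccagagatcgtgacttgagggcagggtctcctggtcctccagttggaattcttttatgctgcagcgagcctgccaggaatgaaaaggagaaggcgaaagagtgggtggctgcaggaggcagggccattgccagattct
The letters ACAAAG, searched on both strands, occurred in 5 of the 14 regions, namely the single region of Kcnj10, all 3 overlapping regions of Slc1a3 and 1 of the 2 regions of Aqp4. They occurred in 18.8% of all 33469 start regions of the same length. In the printed regions of Kcnj10 and Slc1a3 the motif began at position -112 from the start. The SOX variant ACAATG occurred in 0 member regions and in 13.2% of all. The AP-1 motif TGANTCA occurred in the region of Gja1 alone among the members, against 7.33% of all. These matches describe the letters in these windows and say nothing of binding.

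The 4 libraries held 62358475 (CPIP 1), 63541024 (CPIP 2), 60885664 (Sham 1) and 64550637 (Sham 2) unique molecular identifiers (UMIs, the tags that count captured RNA molecules), and 44346 cells were kept. Each pair of libraries shared 1 to 5 cell barcodes. Cells fell into 26 clusters, of which 20 were named by marker lists that held none of the 9 genes, and none of the 9 was used to form the clusters. A class name here says that the cells resembled that class in its markers. Satellite glia held 13774 cells, 3165 and 3689 in the CPIP libraries and 3431 and 3489 in the Sham libraries, and 11 of their 18 markers had their highest level there, or 10 of 17 without Hes5, which was almost undetected. The class called non-myelinating Schwann cells (1772 cells) was a low-UMI cluster whose score for the myelinating list (2.03) was slightly above that for its own (1.83), so that name is the least certain. A cluster of 3537 cells led by Igfbp3, Cdh19 and Scn7a stayed unnamed, since Schwann markers led it although its satellite glia score was the higher.

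Levels are given as CPM, the UMIs of a gene summed over a class in a library and scaled to a common class total, as mean ± SD over the 4 libraries. Classes are compared as a description, with no test, because the clusters were formed from other genes of the same cells. Of the 9 members, 4 had their highest mean level among the 10 named classes in satellite glia: Kcnj10, Slc1a3, Fabp7 and Aqp4. The place of Aqp4 is uncertain, since its counts were too low to set satellite glia apart from every other class. That number was also 4 with each cell's own CPM averaged, at most 10% mitochondrial UMIs, Leiden resolution 0.6 or members allowed in clustering, the alternatives run for it. Leiden resolution 0.6 and members allowed each left 9 named classes, without non-myelinating Schwann cells. The mitochondrial limit left 268 and 294 satellite glia in the CPIP and 352 and 193 in the Sham libraries.

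The potassium channel gene Kcnj10 was highest in satellite glia by a wide margin. It averaged 797 ± 86.4 CPM there, with libraries between 697 and 906 CPM, and the next class, pericytes, averaged 188 ± 95.8 CPM with a range that did not overlap. Non-myelinating Schwann cells (162 ± 26.5 CPM) and macrophages (128 ± 30.8 CPM) followed, and pericytes, non-myelinating Schwann cells and macrophages overlapped as neighbours. Myelinating Schwann cells had 53.2 ± 3.76 CPM, neurons 14.7 ± 2.66 CPM, and endothelial cells were lowest at 7.19 ± 2.80 CPM. The pump subunit Atp1b2 followed another order. It averaged 1263 ± 105 CPM in satellite glia, against 1862 ± 391 CPM in smooth muscle cells and 1680 ± 140 CPM in pericytes, whose ranges overlapped each other. The range of pericytes lay above that of satellite glia, and Sham 1 in smooth muscle cells (1310 CPM) lay within it. Below satellite glia came myelinating Schwann cells (399 ± 28.3 CPM) and non-myelinating Schwann cells (331 ± 43.5 CPM), which overlapped, and neurons were lowest, between 22.7 and 34.7 CPM.

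**Figure D1:**
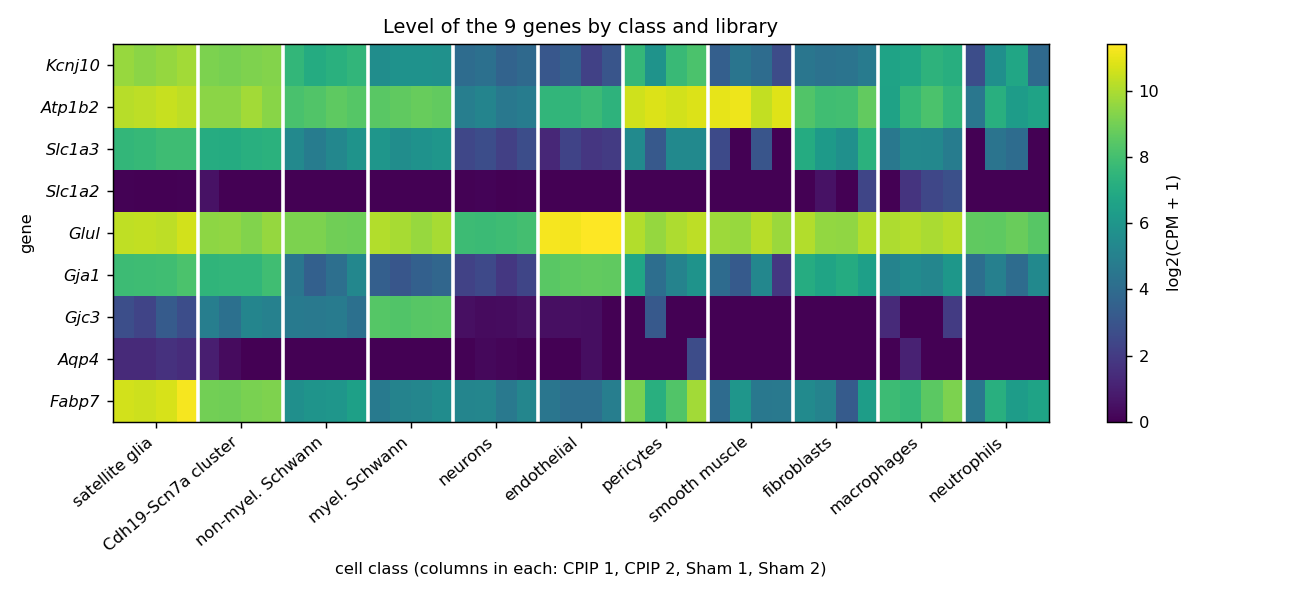
Level of the 9 genes, on a log2(CPM + 1) colour scale, in satellite glia, the unnamed Cdh19-Scn7a cluster and the 9 other named classes, with columns CPIP 1, CPIP 2, Sham 1 and Sham 2 within each class. Read along a row to compare classes for a gene. Kcnj10 and Fabp7 are brightest in satellite glia, Glul in endothelial cells and Gjc3 in myelinating Schwann cells, and Slc1a2 is dark throughout.

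Among the glutamate genes, Slc1a3 was highest in satellite glia and Slc1a2 was hardly detected in any class. Slc1a3 averaged 215 ± 23.2 CPM in satellite glia (189 to 235 CPM), above fibroblasts at 102 ± 47.5 CPM, whose range of 51.6 to 155 CPM did not reach it. Fibroblasts, myelinating Schwann cells (56.8 ± 7.65 CPM) and non-myelinating Schwann cells (40.5 ± 12.9 CPM) overlapped as neighbours. Endothelial cells (2.68 ± 0.997 CPM) and neurons (4.67 ± 0.980 CPM) were near the bottom. Slc1a2, which carries most glutamate uptake in brain astrocytes, had 2 UMIs in satellite glia among 83085884, 6 in macrophages, 4 in neurons and 2 in fibroblasts. It had 0 UMIs in the 6 other classes, which in the Schwann classes allows up to 0.909 CPM (myelinating) and 1.17 CPM (non-myelinating), taking 3 counts as the limit of a count of 0. All such limits cover counting error alone. Glul was found in every class. It averaged 1365 ± 157 CPM in satellite glia, against 2552 ± 171 CPM in endothelial cells, and those ranges did not overlap. Macrophages (1076 ± 78.5 CPM), pericytes, myelinating Schwann cells (953 ± 115 CPM), fibroblasts and smooth muscle cells followed with overlapping neighbours, and neurons were lowest at 232 ± 14.8 CPM. On GRCr8 the Glul gene overlaps Rgsl1, Rgsl2h, Teddm1a and Teddm1b, and the strand setting of the counting is not stated. Rgsl1 had 7 UMIs in satellite glia and Teddm1a and Teddm1b had 0.

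The coupling genes Gja1 and Gjc3 divided between classes. Gja1, whose connexin is the main one of astrocytes, averaged 247 ± 29.1 CPM in satellite glia, against 384 ± 18.6 CPM in endothelial cells, with ranges of 223 to 289 and 359 to 402 CPM that did not overlap. It was lower in fibroblasts (112 ± 22.0 CPM), in non-myelinating Schwann cells (21.6 ± 11.6 CPM) and in myelinating Schwann cells (10.1 ± 2.13 CPM), and lowest in neurons (3.82 ± 0.915 CPM). Gjc3, a connexin gene of myelinating glia, ran the opposite way. It had 4.11 to 8.69 CPM in satellite glia, against 318 to 356 CPM in myelinating Schwann cells and 17.8 to 25.8 CPM in non-myelinating Schwann cells, and these 3 ranges did not overlap. Fibroblasts, neutrophils and smooth muscle cells had 0 UMIs of Gjc3, which allows up to 0.776, 5.16 and 2.13 CPM in that order.

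Fabp7 was highest in satellite glia at 1809 ± 447 CPM (1504 to 2469 CPM), and the next classes were pericytes (481 ± 333 CPM) and macrophages (340 ± 174 CPM), which overlapped each other. Both Schwann classes were far lower, at 65.1 ± 16.5 CPM in the non-myelinating and 35.1 ± 8.63 CPM in the myelinating class, and overlapped their neighbours in the order. Aqp4 was detected at a low level and mostly in satellite glia. It had 145 UMIs there (1.75 ± 0.226 CPM), against 5 in the Cdh19-Scn7a cluster, 9 in neurons and 1 each in endothelial cells, macrophages and pericytes. Its range in satellite glia overlapped that of pericytes, where the 1 UMI stood for 5.21 CPM in its library. Both Schwann classes had 0 UMIs of Aqp4, which allows the same 0.909 and 1.17 CPM. Neutrophils and smooth muscle cells had 0 UMIs too, which allows up to 5.16 and 2.13 CPM, above the mean of satellite glia.

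Set against the level in satellite glia of the same library, most members stood near the satellite glia markers in some classes and apart from them in others. In neurons, Gja1, Kcnj10, Fabp7, Slc1a3 and Atp1b2 stood at 1.56% to 2.24% of the satellite glia level, beside a median of 3.18% over the 17 satellite glia markers with a measurable level, and Glul stood at 17.1%. In macrophages the same 5 genes stood at 14.9% to 18.1%, beside a marker median of 16.7%, and Glul at 79.1%. The part that RNA from satellite glia has in these levels was not tested. In myelinating Schwann cells the marker median was 9.50%, with single markers from 1.96% (Tyrp1) to 8752% (Pou3f1). Slc1a3 (26.6%), Atp1b2 (31.6%) and Glul (70.3%) lay above that median while Kcnj10 (6.74%), Gja1 (4.07%) and Fabp7 (1.95%) lay below. In non-myelinating Schwann cells the marker median was 29.1%, with Glul at 38.9%, Atp1b2 at 26.1%, Kcnj10 at 20.2%, Slc1a3 at 18.7%, Gja1 at 8.52% and Fabp7 at 3.60%. In endothelial cells Kcnj10, Fabp7 and Slc1a3 stood at 0.922% to 1.25%, beside a marker median of 3.19%, whereas Atp1b2 stood at 14.8%, Gja1 at 157% and Glul at 188%.

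**Figure D2:**
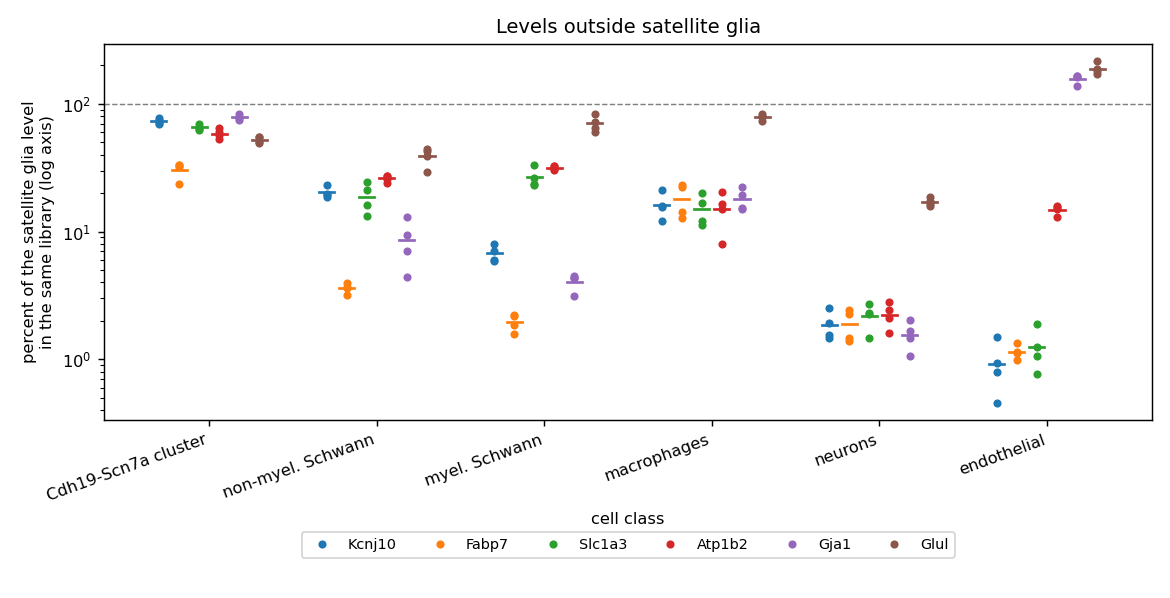
Level of 6 genes as a percentage of their level in satellite glia of the same library, on a log axis, with 1 point per library and a bar at the mean. In neurons Glul lies near 17.1% and the other 5 genes near 2%, and in endothelial cells Gja1 and Glul lie above the dashed line at 100%.

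Detection per cell gave the same picture after each cell was reduced to 1000 UMIs, the depth at which classes can be compared. At that depth a UMI of Kcnj10 was expected in 54.3 ± 3.80% of satellite glia, against 0.671% of endothelial cells, the named class with the lowest share, taken as the background level, and at full depth the shares were 93.4% and 2.44%. Atp1b2 reached 68.3 ± 2.76% (full depth 94.9%), against 2.22% of neurons (full depth 12.9%). Fabp7 reached 67.0 ± 6.15% (full depth 89.4%), against 2.04% of endothelial cells (full depth 6.09%). These members were thus seen in most satellite glia once cells were sampled to full depth. Glul reached 67.5 ± 3.24% of satellite glia (full depth 93.8%), against 20.3% of neurons (full depth 68.2%). Gja1 reached 21.3 ± 2.23% (full depth 65.4%), against 0.375% of neurons (full depth 3.09%), and Slc1a3 reached 18.8 ± 1.87% (full depth 62.9%), against 0.320% of neutrophils (full depth 1.44%). Gjc3 was expected in 0.751% of satellite glia (full depth 3.30%) and Aqp4 in 0.163% (full depth 0.995%), against 0 fibroblasts for both. A satellite glia cell held a UMI of 2.98 ± 0.165 of the 9 genes at 1000 UMIs and of 5.04 ± 0.150 at full depth, and a neuron held 0.271 and 1.09. The 304 satellite glia under 1000 UMIs were left out of the reduced values, 70 and 72 in the CPIP and 104 and 58 in the Sham libraries. Median depth was 5372 to 5684 UMIs in CPIP and 4949 to 6027 UMIs in Sham satellite glia.

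Satellite glia split into 3 large states and a small one of 137 cells, which had too few cells per library to be described. The first state was led by genes that include Gbp5 and Il6, known from inflammation. It held 37.1% and 29.9% of satellite glia in the CPIP libraries and 30.6% and 30.4% in the Sham libraries. The second was led by Pdk4, Papln and Spp1 and held 36.5% and 43.0% in the CPIP libraries and 39.2% and 44.6% in the Sham libraries. The third was led by the transcription factor genes Sox10, Pou3f2 and Hey2 and held 25.2% and 26.5% in the CPIP libraries and 28.7% and 24.4% in the Sham libraries. Its cells were shallower, with a median of 3476 UMIs against 7151 in the Gbp5 state and 5596 in the Pdk4 state, and had more mitochondrial UMIs (16.4% against 12.2% and 14.0%).

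Kcnj10 averaged 846 ± 99.8 CPM in the Pdk4 state, 836 ± 87.8 CPM in the Sox10 state and 738 ± 70.9 CPM in the Gbp5 state. Gja1 averaged 275 ± 29.0, 267 ± 27.8 and 214 ± 25.6 CPM in the same order of states. Glul was highest in the Pdk4 state (1441 ± 168 CPM) and lowest in the Sox10 state (1120 ± 132 CPM), with 1387 ± 146 CPM in the Gbp5 state. Slc1a3 ran in that same order at 226 ± 22.3, 213 ± 24.1 and 194 ± 20.8 CPM. Fabp7 averaged 2027 ± 518 CPM in the Pdk4, 1732 ± 443 CPM in the Sox10 and 1630 ± 353 CPM in the Gbp5 state. Gjc3 stood highest in the Sox10 state at 11.7 ± 3.44 CPM, against 5.04 ± 2.08 CPM in the Pdk4 and 4.96 ± 1.43 CPM in the Gbp5 state. Aqp4 was highest in the Gbp5 state at 2.10 ± 0.302 CPM and stood at 1.46 CPM in both others. For every member the ranges over libraries of states next to each other in the order overlapped. The highest and lowest state did not overlap for Aqp4 (1.78 to 2.42 CPM in the Gbp5 and 1.36 to 1.52 CPM in the Pdk4 state), for Gja1 (256 to 318 CPM in the Pdk4 and 193 to 250 CPM in the Gbp5 state) and for Glul (1318 to 1690 CPM in the Pdk4 and 992 to 1305 CPM in the Sox10 state).

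The unnamed Cdh19-Scn7a cluster lay between satellite glia and Schwann cells for most members. As a percentage of the satellite glia level it held 78.7 ± 3.70% of Gja1, 73.1 ± 3.58% of Kcnj10, 65.3 ± 3.42% of Slc1a3, 58.5 ± 5.00% of Atp1b2 and 52.3 ± 3.16% of Glul, beside a median of 72.4% over the satellite glia markers. Fabp7 stood lower there at 30.4 ± 4.51%, and Gjc3 stood higher at 480 ± 74.8%. Aqp4, on 5 UMIs, stood at 18.5 ± 27.5%. Fabp7 thus lay well below the marker median, though near some markers highest in satellite glia, such as Sfrp5 (31.4%) and Bcan (38.2%). Other such markers, Dbi (92.2%) among them, stood far higher. Aqp4 had too few UMIs there to be placed.

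**Figure D3:**
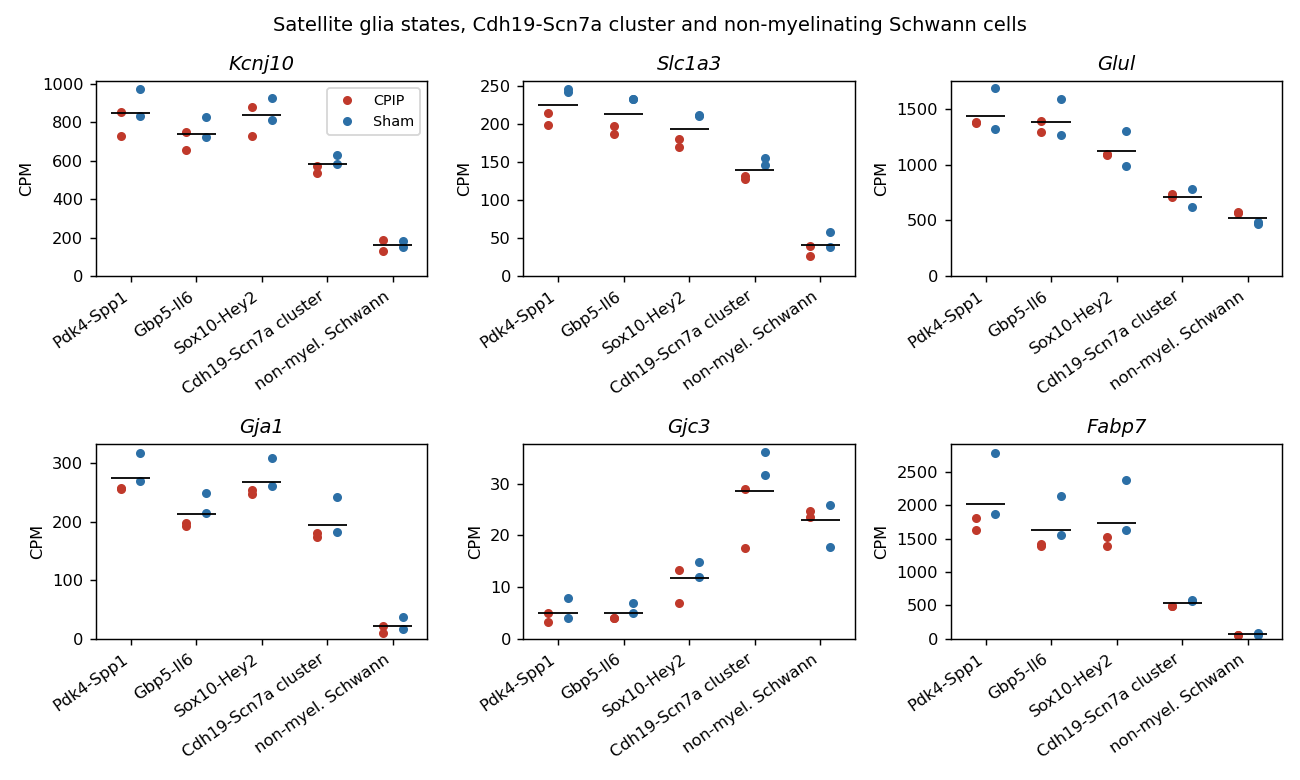
Level (CPM) of 6 genes in the 3 satellite glia states, the Cdh19-Scn7a cluster and non-myelinating Schwann cells, with CPIP libraries in red left of Sham libraries in blue and a bar at the mean of the 4. Kcnj10, Slc1a3, Glul, Gja1 and Fabp7 step down outside the 3 states, and Gjc3 is highest in the Cdh19-Scn7a cluster and non-myelinating Schwann cells.

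CPIP and Sham rats were then compared within satellite glia, which asks whether the potassium, glutamate and coupling genes differ after CPIP. None of the 12652 genes tested passed edgeR's quasi-likelihood test at an adjusted p under 0.05 (0% called), with 414 at an unadjusted p under 0.05, and DESeq2 called 8 genes. No member was called by either tool. Without CPIP 1 edgeR called 428 genes and without CPIP 2 it called 9, again with 0 members, and the lone CPIP library was then assumed to vary like the Sham libraries. Slc1a2 fell under the filter on low counts, and the other 8 members were tested. All 8 had negative log2 fold changes (CPIP over Sham), with a median of -0.22 beside 0.01 over all genes tested. Of all genes tested, 52.2% had a positive one. The 8 members share the same libraries, so their signs are not independent. In 5 of the 8 both CPIP libraries lay below both Sham libraries, and in 0 of the 8 above, beside 19.9% and 12.7% of all genes tested. With 2 libraries in each group an exact permutation test of a single gene cannot go below a two-sided p of 0.333.

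The glutamate transporter gene Slc1a3 had the smallest unadjusted p of the members. It had 189 and 202 CPM in CPIP 1 and CPIP 2 and 234 and 235 CPM in Sham 1 and Sham 2. Both CPIP libraries lay below both Sham libraries, and libraries of a group lay close together. Its log2 fold change was -0.24 (SE 0.07, n = 2 libraries per group), with an edgeR p of 0.0158 and an adjusted p of 0.982, so it did not pass. Leaving out each library in turn gave -0.28 to -0.20. Glul, the next step of the glutamate route, had 1293 and 1339 CPM in the CPIP and 1237 and 1592 CPM in the Sham libraries. Its groups overlapped, with a log2 fold change of -0.09 (SE 0.14), and without Sham 2 it was 0.12.

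Among the potassium genes, Kcnj10 had 806 and 697 CPM in the CPIP and 778 and 906 CPM in the Sham libraries. These overlapped, with a log2 fold change of -0.14 (SE 0.12) and an edgeR adjusted p of 0.982. It was -0.02 without Sham 2 and -0.04 without CPIP 2, and -0.26 without either of the other libraries. Atp1b2 had 1165 and 1222 CPM in the CPIP and 1409 and 1255 CPM in the Sham libraries. Here the CPIP libraries lay below, by a gap narrower than the spread between the Sham libraries, with a log2 fold change of -0.14 (SE 0.08), which was -0.07 without Sham 1 and -0.21 without Sham 2.

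Of the connexin genes, Gja1 had 223 and 232 CPM in the CPIP and 243 and 289 CPM in the Sham libraries. CPIP lay below Sham, with a log2 fold change of -0.20 (SE 0.11) and an edgeR adjusted p of 0.982. It was -0.06 without Sham 2 and -0.34 without Sham 1. Gjc3 had 110 and 90 UMIs (5.68 and 4.11 CPM) in the CPIP and 163 and 127 UMIs (8.69 and 5.51 CPM) in the Sham libraries. CPIP 1 lay above Sham 2, so the groups overlapped, and its log2 fold change was -0.51 (SE 0.29), which was -0.16 without Sham 1, -0.28 without CPIP 2, -0.76 without CPIP 1 and -0.80 without Sham 2.

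Fabp7 had 1572 and 1504 CPM in the CPIP and 1690 and 2469 CPM in the Sham libraries. CPIP lay below Sham, and Sham 2 stood far above the other 3 libraries. Its log2 fold change was -0.42 (SE 0.19), with an edgeR adjusted p of 0.982, and it was -0.10 without Sham 2 and -0.68 without Sham 1. Aqp4 had 31 and 35 UMIs in the CPIP and 39 and 40 UMIs in the Sham libraries, and its CPM lay lower in both CPIP libraries. Its log2 fold change was -0.23 (SE 0.23), which was -0.11 without Sham 1 and -0.34 without Sham 2. Slc1a2 had 1 and 0 UMIs in the CPIP and 0 and 1 in the Sham libraries, too few to compare.

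**Figure D4:**
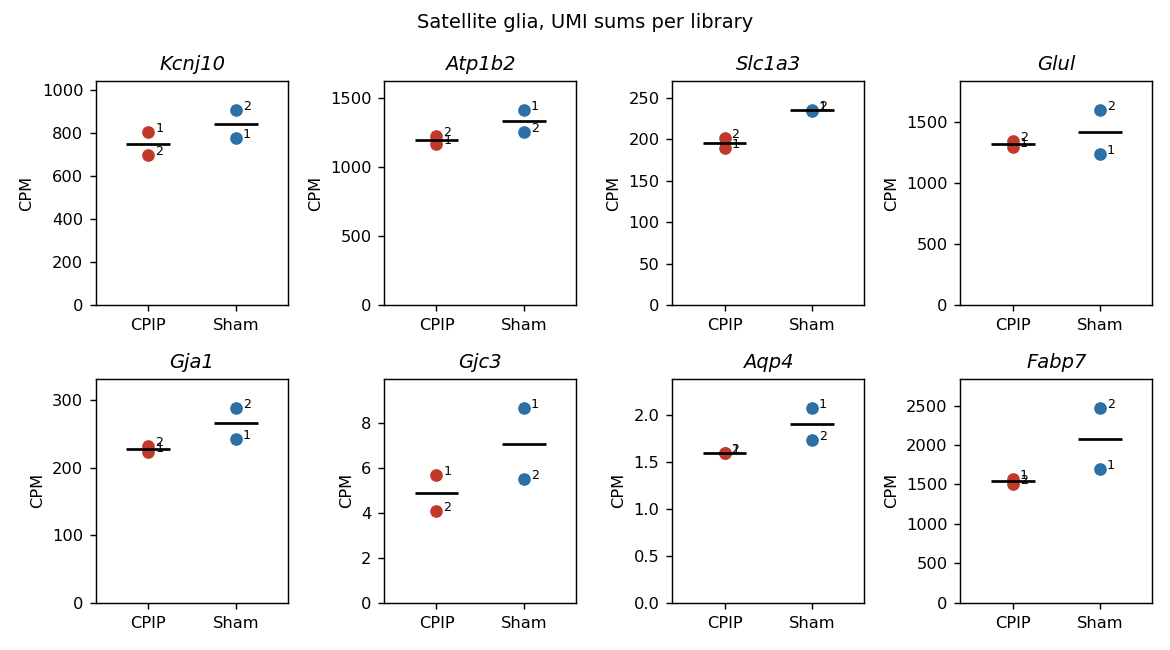
Level (CPM) of the 8 tested genes in satellite glia, with CPIP libraries in red left of Sham libraries in blue, the replicate number beside each point and a bar at the group mean. Slc1a3, Gja1, Atp1b2, Fabp7 and Aqp4 have both CPIP points below both Sham points, and Kcnj10, Glul and Gjc3 overlap.

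Sham 2 had the highest CPM of Kcnj10, Glul, Gja1 and Fabp7 in satellite glia and also the highest median UMI count there (6027). The median mitochondrial share was 13.8% and 13.3% in the CPIP and 13.6% and 14.2% in the Sham libraries and overlapped. The 18 satellite glia markers summed to 26294 and 26572 CPM in the CPIP and 26379 and 27488 CPM in the Sham libraries and overlapped. Of the marker lists of other classes inside satellite glia, 3 stood higher in both CPIP libraries. The 14 endothelial markers summed to 153 and 165 CPM in CPIP and 142 and 151 CPM in Sham libraries. The 7 neutrophil markers summed to 7.07 and 6.53 CPM in CPIP and 2.29 and 1.30 CPM in Sham libraries, with Csf3r at 0. The 5 perineurial markers summed to 93.6 and 156 CPM in CPIP and 89.8 and 89.9 CPM in Sham libraries, with Mpzl2 at 0. The 9 smooth muscle markers stood lower, at 72.5 and 73.8 CPM in CPIP and 80.4 and 83.5 CPM in Sham libraries, with Cnn1 at 0. Their part in the member differences was not tested.

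The same comparison was made inside each state. Of 23 member tests in the 3 states, 0 passed edgeR's test, the smallest adjusted p being 0.956, and 22 had a negative log2 fold change. Over all genes tested, 51%, 51.9% and 51.3% had a positive one in the Gbp5, Pdk4 and Sox10 states. The members were measured in the same libraries, so their signs are not independent. No gene at all was called in these fits (0%), with 378, 438 and 356 at an unadjusted p under 0.05 in the Gbp5, Pdk4 and Sox10 states, and DESeq2 called 9 genes over the 3 states. Without CPIP 1 the log2 fold change of Fabp7 in the Sox10 state was -0.53, and its values without each of the other libraries are not given. A fit with a single CPIP library cannot show how CPIP libraries vary. In the Gbp5 state 6 of 8 members had both CPIP libraries below both Sham libraries, beside 19% of all genes tested there. In the Pdk4 state it was 4 of 8, beside 18.8%, and in the Sox10 state 4 of 7, beside 16.3%. Slc1a3 was below in all 3, and in the Gbp5 state it had 188 and 197 CPM in the CPIP and 234 and 234 CPM in the Sham libraries. Its log2 fold change was -0.26 (SE 0.08) there, -0.22 (SE 0.08) in the Pdk4 state and -0.26 (SE 0.09) in the Sox10 state. Fabp7 gave -0.38, -0.42 and -0.46 in the same order of states. The exception in sign was Aqp4 in the Pdk4 state, at 0.08 (SE 0.36) on 10 and 14 UMIs in the CPIP and 11 and 14 UMIs in the Sham libraries. The states hold cells of the same libraries, so they are no further replicates. In the Cdh19-Scn7a cluster 7 members were tested and 0 passed. No gene of 10231 was called by edgeR there (0%), with 323 at an unadjusted p under 0.05. Of the 7, 5 had both CPIP libraries below both Sham libraries, beside 17.4% of genes, namely Kcnj10, Gja1, Gjc3, Slc1a3 and Fabp7. Satellite glia markers in that cluster overlapped, whereas 12 fibroblast markers stood lower, at 3195 and 3066 CPM in the CPIP and 3572 and 3308 CPM in the Sham libraries, with Clec3b and Dpt at 0. The 14 endothelial markers (123 and 130.1 CPM in CPIP, 113 and 116 CPM in Sham) and the 16 macrophage markers (21.4 and 23.8 CPM in CPIP, 18.4 and 11.7 CPM in Sham, with Cd163 at 0) stood higher. Their part in the member differences was not tested.

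In the 9 other named classes, 45 member tests were made and 0 passed edgeR's test, and DESeq2 called 0 members too. Over all genes edgeR called 6 in these classes and DESeq2 15, and leaving out 1 library gave 1509 (without CPIP 1), 219 (without CPIP 2), 104 (without Sham 1) and 304 (without Sham 2). In 6 of the 45 both CPIP libraries lay above and in 11 below, and the other 28 overlapped. Background shares by class ran from 14% to 19.5% of all genes tested above and from 13.8% to 19.4% below, and 0% to 0.0381% of genes were called.

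In non-myelinating Schwann cells (0.0299% of genes called), Glul had 577 and 567 CPM in the CPIP and 483 and 468 CPM in the Sham libraries. Both CPIP libraries lay above both Sham libraries (16.7% of genes did so), with a log2 fold change of 0.27 (SE 0.14) and an edgeR adjusted p of 0.884. Atp1b2 (280 and 318 CPM in CPIP, 383 and 342 CPM in Sham) and Fabp7 (50.5 and 59.1 CPM in CPIP, 61.9 and 88.8 CPM in Sham) lay below (17.8% of genes did so), at -0.28 (SE 0.15) and -0.44 (SE 0.27). With each library left out in turn they ran from -0.36 to -0.19 and, for Fabp7, from -0.70 (without Sham 1) to -0.16 (without Sham 2). The direction of Glul differed from that in satellite glia, and the difference itself was tested. The CPIP effect on Glul in satellite glia minus that in non-myelinating Schwann cells was -0.39 on the log2 scale (SE 0.13), with an edgeR p of 0.00229 and an adjusted p of 0.566, so it did not pass. In that test 13 of 13013 genes passed (0.0999%) and 0 members did. Macrophage markers summed to 38.8 and 45.8 CPM in CPIP and 29.2 and 22.2 CPM in Sham non-myelinating Schwann cells, with 5 of 16 at 0 (Tyrobp, Cd163, C1qa, Cx3cr1 and Aif1). Endothelial markers summed to 110 and 91.6 CPM in CPIP and 141 and 124 CPM in Sham cells. The 14 markers of the class itself summed to 11712 and 12299 CPM in CPIP and 12690 and 12478 CPM in Sham cells. The part of these lists was not tested.

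In myelinating Schwann cells (0.0143% of genes called), Glul again lay higher in both CPIP libraries (18.8% of genes did so). It had 1083 and 971 CPM in the CPIP and 804 and 953 CPM in the Sham libraries, and its log2 fold change was 0.21 (SE 0.11), which was 0.09 without Sham 1 and 0.31 without Sham 2. Gjc3, at its highest level in this class, had 341 and 318 CPM in the CPIP and 351 and 356 CPM in the Sham libraries. CPIP lay below Sham (15.2% of genes did so), as for Atp1b2 and Fabp7. The log2 fold change of Gjc3 was -0.12 (SE 0.13), of Atp1b2 -0.17 (SE 0.12) and of Fabp7 -0.51 (SE 0.30), and the smallest edgeR adjusted p of a member in the class was 0.932. Gjc3 turned to 0.17 at most 10% mitochondrial UMIs, which left 65 to 202 cells per library. Atp1b2 was -0.09 without CPIP 1 and -0.25 without CPIP 2, and Fabp7 was -0.28 without CPIP 1 and -0.73 without CPIP 2. Markers of neurons (25 genes, 2620 and 2784 CPM in CPIP, 2193 and 2469 CPM in Sham, with Mrgprd and Pou4f1 at 0) and of endothelial cells (14 genes, 172 and 166 CPM in CPIP, 153 and 143 CPM in Sham) stood higher in CPIP. Their part was not tested.

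In macrophages (0% of 6089 genes called, 305 at an unadjusted p under 0.05), Fabp7 had the smallest adjusted p of a member in any named class. It had 223 and 191 CPM in the CPIP and 374 and 573 CPM in the Sham libraries. CPIP lay well below Sham (18.2% of genes did so), with a log2 fold change of -1.16 (SE 0.22), an edgeR p of 0.000146 and an adjusted p of 0.297. It was -0.85 without Sham 2 (adjusted p 0.176) and -1.44 without Sham 1 (adjusted p 1.18e-05 in edgeR). Kcnj10 lay below too, at 96.7 and 108 CPM in the CPIP and 163 and 143 CPM in the Sham libraries (-0.55, SE 0.22). The 18 satellite glia markers inside macrophages were lower in CPIP as well, at 8309 and 8888 CPM in the CPIP and 9162 and 10144 CPM in the Sham libraries, with Hes5 at 0. The 16 macrophage markers stood higher, at 38244 and 37689 CPM in the CPIP and 33438 and 33797 CPM in the Sham libraries. Their part in the difference was not tested.

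In neurons (0.00733% of genes called), Kcnj10 had 15.6 and 17.7 CPM in the CPIP and 11.4 and 14.1 CPM in the Sham libraries. Atp1b2 had 28.1 and 34.7 CPM in the CPIP and 22.7 and 26.5 CPM in the Sham libraries. For both genes CPIP lay above Sham (15.1% of genes did so), with log2 fold changes of 0.39 (SE 0.16) and 0.36 (SE 0.14) and edgeR adjusted p of 0.967. Atp1b2 was 0.21 without CPIP 2 (adjusted p 0.904) and 0.50 without CPIP 1 (adjusted p 0.0353), and Kcnj10 ran from 0.25 (without Sham 1) to 0.55 (without Sham 2). The 18 satellite glia markers inside neurons also stood higher in CPIP, at 1481 and 1946 CPM in the CPIP and 1202 and 1441 CPM in the Sham libraries, with Hes5 at 0, and their part was not tested. Glul ran the other way in neurons (18% of genes were below), at 224 and 219 CPM in the CPIP and 231 and 253 CPM in the Sham libraries (-0.12, SE 0.08), which was -0.06 without Sham 2 and -0.18 without Sham 1.

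In endothelial cells (0.0101% of genes called), where Gja1 and Glul were highest, both lay lower in CPIP (19.4% of genes did so). Glul had 2416 and 2394 CPM in the CPIP and 2670 and 2726 CPM in the Sham libraries (-0.14, SE 0.08). Gja1 had 359 and 382 CPM in the CPIP and 402 and 394 CPM in the Sham libraries (-0.08, SE 0.09), which was -0.03 without CPIP 1 and -0.13 without CPIP 2. Kcnj10 lay above there (14% of genes did so), on 21 and 27 UMIs in the CPIP and 10 and 22 UMIs in the Sham libraries. Its log2 fold change was 0.74 (SE 0.40), which was 0.34 without Sham 1, 0.50 without CPIP 2 and 1.35 without Sham 2. In smooth muscle cells (0% called of 4421 genes, 243 at an unadjusted p under 0.05), where Atp1b2 was highest, it had 2055 and 2203 CPM in the CPIP and 1310 and 1881 CPM in the Sham libraries. CPIP lay above Sham (19.5% of genes did so), with a log2 fold change of 0.37 (SE 0.19). It was 0.18 without Sham 1 and 0.58 without Sham 2. Glul in that class overlapped between the groups, at -0.33 (SE 0.24) with an edgeR adjusted p of 0.899. It had 850 and 794 CPM in the CPIP and 1150 and 818 CPM in the Sham libraries, so Sham 1 alone stood apart. Without Sham 2, which leaves Sham 1 as the only Sham library, its log2 fold change was -0.61. Pericyte markers inside that class stood at 2357 and 2381 CPM in the CPIP and 1202 and 2024 CPM in the Sham libraries, and their part was not tested. In pericytes (0.0381% called), Kcnj10 had 27 and 7 UMIs in the CPIP and 26 and 55 UMIs in the Sham libraries, below (17% of genes did so), with a log2 fold change of -0.97 (SE 0.36) and an edgeR adjusted p of 0.717. It was -0.39 without CPIP 2 and -2.16 without CPIP 1. Fabp7 in pericytes had 548 and 148 CPM in the CPIP and 314 and 917 CPM in the Sham libraries, which overlapped. Its log2 fold change was -0.85 (SE 0.35), with an edgeR adjusted p of 0.853. For Fabp7 it was -2.14 without CPIP 1 and -1.38 without Sham 1, both further from 0 than with all libraries. Fabp7 in CPIP 1 lay above Sham 1, so its lower CPIP mean rests on the low CPIP 2 and the high Sham 2. The satellite glia markers inside pericytes summed to 9012 and 6204 CPM in the CPIP and 8304 and 10088 CPM in the Sham libraries, lowest in CPIP 2 and highest in Sham 2, as Kcnj10 and Fabp7 were. Markers of non-myelinating Schwann cells (1297 and 1336 CPM in CPIP, 1620 and 1864 CPM in Sham) and fibroblasts (2327 and 2172 CPM in CPIP, 2380 and 2411 CPM in Sham) stood lower in CPIP. Endothelial markers stood higher (965 and 992 CPM in CPIP, 884 and 844 CPM in Sham). Markers at 0 in every library were Hes5 of the satellite glia list, Sema3e and Rnf128 of the Schwann list, Clec3b, Dpt and Pi16 of the fibroblast list, and Egfl7 and Cdh5 of the endothelial list. The part of these lists was not tested.

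**Figure D5:**
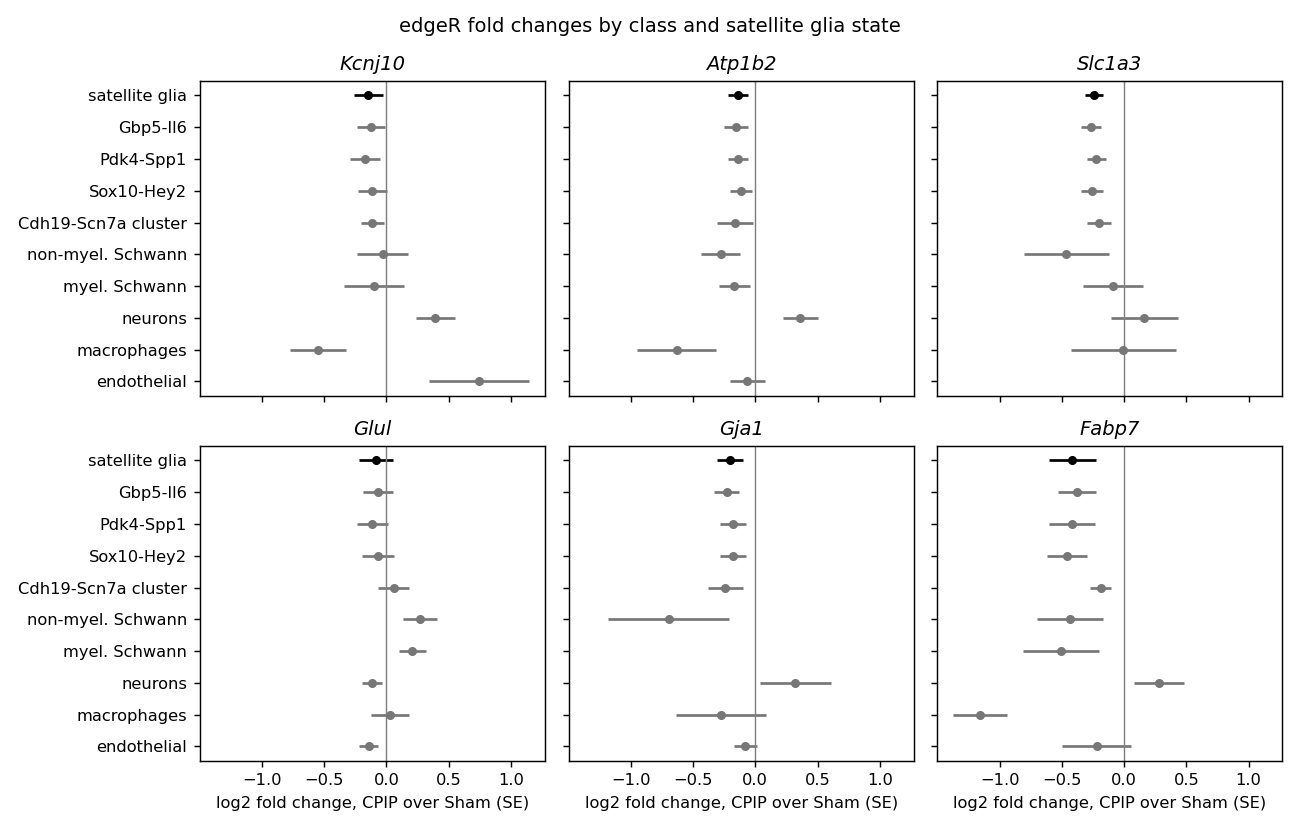
Log2 fold change of 6 genes, CPIP over Sham, from edgeR in satellite glia (black), their 3 states, the Cdh19-Scn7a cluster and other classes (grey), with bars of 1 SE. All 6 genes lie left of 0 in satellite glia and in each state, and Kcnj10 and Atp1b2 lie right of 0 in neurons; none of the values shown passed the test.

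The sole member test that passed was that of Fabp7 in a cluster that has no class name. It held 463 cells of low depth (median 618 UMIs), led by Pde7b, Ctnna3 and Dennd2a, and scored nearly alike for non-myelinating Schwann and satellite glia markers. Fabp7 had 29 and 14 UMIs (212 and 151 CPM) in the CPIP and 68 and 47 UMIs (820 and 465 CPM) in the Sham libraries. All CPIP values lay below all Sham values (16.4% of genes did so). Its log2 fold change was -1.79 (SE 0.35), with an edgeR adjusted p of 0.00184, among 3 of 2312 genes called (0.13%). The adjusted p was 0.161 without CPIP 2 and 0.542 without Sham 1, with log2 fold changes of -1.60 and -1.31, and it was 0.447 in DESeq2. Satellite glia markers summed to 10213 and 9816 CPM in CPIP and 12214 and 10952 CPM in Sham cells of this cluster, with Hes5 at 0. Non-myelinating Schwann markers summed to 7116 and 6263 CPM in CPIP and 4895 and 5273 CPM in Sham cells. Their part in the difference was not tested.

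In the 4 other unnamed clusters, 18 member tests were made and 0 passed edgeR's test. A cluster led by Gpc5 and Csmd1 had 3 of 6 members below and 0 above (0.0117% of genes called, 17.2% below, 16.2% above), and one led by Kcnq5 and Ptprd had 2 of 5 below and 0 above (0.0249% called, 17.8% below, 14.4% above). A cluster led by haemoglobin genes and Top2a had 4 of 6 below and 0 above (0.0186% called, 26% below, 11.9% above). In that cluster Fabp7 had 866 and 832 CPM in the CPIP and 1148 and 2159 CPM in the Sham libraries, with a log2 fold change of -0.87 (SE 0.24) and an edgeR adjusted p of 0.563. The last cluster, led by Col6a5 and Samd5, had 1 member tested, Glul, which overlapped (0% called, with 166 genes at an unadjusted p under 0.05, 17.7% below, 15.2% above).

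Genes that work beside the members were read from 5 lists in satellite glia, and 0 of their genes passed edgeR's test. Of 19 tested genes of potassium and volume control, 10 had a positive and 9 a negative log2 fold change. Gpr37l1, a glial receptor gene related to Gpr37, had 646 and 672 CPM in the CPIP and 797 and 735 CPM in the Sham libraries (-0.20, SE 0.07). Slc12a2, the sodium-potassium-chloride importer, gave -0.11 (SE 0.07). Kcna2, a voltage-gated potassium channel gene and the one with the smallest unadjusted p (0.0254), had 22.7 and 28.6 CPM in the CPIP and 18.4 and 20.1 CPM in the Sham libraries (0.43, SE 0.14). Of 11 genes of the sodium-potassium pump, 7 were positive and 4 negative. Atp1b3, another beta subunit gene, had 658 and 611 CPM in the CPIP and 570 and 610.3 CPM in the Sham libraries. CPIP lay above, by less than the spread between libraries of a group, at 0.13 (SE 0.08). Fxyd2, a small regulator of the pump, had the smallest p of that list (0.108).

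Of 20 tested genes of the glutamate and GABA cycle, 7 were positive and 13 negative. Glud1, which oxidises glutamate, and Slc38a2, a glutamine carrier, overlapped between the groups at 0.06 and -0.04. Of 6 genes of gap junctions and contacts, 5 were positive and 1 negative. Cdh2 and Tjp1, genes of cell contacts, stood within 0.01 of 0. Gjc1, a further connexin gene, had 21.5 and 18.6 CPM in the CPIP and 13.9 and 15.9 CPM in the Sham libraries, above Sham where Gja1 lay below (0.45, SE 0.14), and it had the smallest unadjusted p of its list. Of 15 genes of water and fatty acid binding, 6 were positive and 9 negative. Dag1, the dystroglycan gene, and Fabp5 overlapped at 0.01 and 0.13. Pmp2, a fatty acid binding protein gene of Schwann cells and a relative of Fabp7, had 104 and 134 CPM in the CPIP and 183 and 169 CPM in the Sham libraries (-0.54, SE 0.13), and likewise the smallest of its list. Every adjusted p of these named genes was 0.982 or more. Medians of the 5 lists were 0.00, 0.05, -0.10, 0.10 and -0.10 in the order given, beside 0.01 over all genes tested.

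The genes whose levels over the 10 named classes were most like each member were named by Pearson's r of log2(CPM + 1), among 9222 genes. All points share libraries and class sums, so r is a description. Kcnj10 was most like Dbi (0.987), Ttyh1 (0.983) and Slitrk2 (0.978), of which Dbi and Ttyh1 are naming markers of satellite glia, and Fabp7 was most like Abhd4 (0.988), Acsbg1 (0.985) and Bcan (0.983), of which Bcan is one. Slc1a3 was most like Megf10 (0.957), Mamdc2 (0.935) and Agmo (0.928), and Aqp4 like Fhdc1 (0.949), Cdh15 (0.929) and Tectb (0.910). Among the genes most like Gjc3 were the myelin gene Pmp22 (0.962), a naming marker of myelinating Schwann cells, and Secisbp2l (0.956). Atp1b2 was most like Csad (0.953), Egflam (0.945) and Pdk4 (0.942). Gja1 was most like Cxcl9 (0.919), Cxcl11 (0.910) and Ptn (0.907), and Glul like Retsat (0.909), Jam2 (0.904) and Pvr (0.885). Slc1a2, on its few UMIs, was most like C6, Cfd and Ctsa, genes highest in macrophages. Among the members themselves, Kcnj10 and Fabp7 (0.901), Fabp7 and Aqp4 (0.895) and Gja1 and Glul (0.803) had the highest r of the 36 pairs, and Gja1 and Gjc3 gave -0.25. Every r of Aqp4 rests on few UMIs, with 145 in satellite glia and 1 in pericytes, the class with its next highest level.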

How the data were processed

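The deposited files hold UMI counts per gene and cell barcode from BD Rhapsody whole-transcriptome libraries of dissociated ganglia, with no normalization by the authors that the values show. The aligner, the genome build and the strand setting were not stated in the labels or file headers. The 4 libraries, each of 3 pooled rats, were grouped by their titles.

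Barcodes with at least 200 genes and at most 25% mitochondrial UMIs were kept. The Scrublet doublet caller marked under 0.5% of cells in 3 of the 4 libraries, so the 5% of cells with the highest doublet scores were removed in all 4. Cells were clustered with scanpy 1.11.5 (2000 variable genes without the members, 30 components, 15 neighbours, Leiden resolution 1.0) and named from lists of 179 marker symbols (171 found).

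UMIs were summed per library and class, scaled to CPM, and tested with edgeR 4.0.16 (quasi-likelihood, TMM, filter on low counts, Benjamini-Hochberg adjustment over all genes tested, threshold 0.05), after the procedure had been tested on simulated data. For 12652 simulated satellite glia genes the procedure recovered 87 of 100 changed 2-fold and 34 of 100 changed 1.5-fold, with 14 false calls. The changed genes were drawn from those above 10 CPM, and no change below 1.5-fold was simulated. The recovery thus does not cover Gjc3 and Aqp4, nor changes as small as those of the members in satellite glia. Sums needed at least 30 cells in every library. The interaction test used class and group over 8 sums with the library as a block. DESeq2 1.42.0, no filter, other clusterings, doublets kept, at most 10% mitochondrial UMIs, a replicate block and leaving out each library were the alternatives. Detection was also computed with each cell reduced to 1000 UMIs. Precision is limited by 2 libraries per group, and intervals of single counts cover counting error only.

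The members, marker lists, pathway lists and tests were chosen with earlier results of these data known. Of each pathway list the text names the 2 genes with the highest level in satellite glia and the 1 with the smallest unadjusted p, and for each member the 3 genes most like it over the 10 classes, among genes reaching 20 CPM in a class. Some genes that this rule names are not reported here.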

Additional observations from a re-analysis of the deposited data

Results flagged for a closer look

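For 3 genes the libraries moved one way in some classes and the opposite way in others. These were differences of direction in which both CPIP libraries lay on one side of both Sham libraries, and between most classes the difference itself was not tested. Over the 9 named classes other than satellite glia, 6 of 45 member tests lay above and 11 below, beside 14% to 19.5% and 13.8% to 19.4% of all genes.

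Kcnj10 lay higher in both CPIP libraries in endothelial cells (log2 fold change 0.74, or 0.34 to 1.35 with 1 library left out) and in neurons (0.39), and lower in macrophages (-0.55) and pericytes (-0.97, or -2.16 to -0.39). Glul lay higher in both Schwann classes (0.21 in the myelinating, 0.27 in the non-myelinating), and lower in endothelial cells (-0.14) and neurons (-0.12). Atp1b2 lay higher in neurons (0.36) and smooth muscle cells (0.37), and lower in satellite glia (-0.14) and both Schwann classes (-0.17 in the myelinating, -0.28 in the non-myelinating). None of these values passed edgeR's test in its class. Satellite glia and non-myelinating Schwann cells were the one pair of classes in which the difference was tested, and there Atp1b2 differed by 0.09 (SE 0.14) and did not pass.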

How the results depend on the processing

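In satellite glia, 93 of 94 member fold changes under the alternatives stayed negative and 0 passed the test (lowest edgeR adjusted p 0.321). The exception was Glul, which ran from -0.27 to 0.12 when 1 library was left out, the 0.12 without Sham 2. The members' median ran from -0.26 to -0.16 in the same way and was -0.12 at most 10% mitochondrial UMIs. That limit kept a small part of the class, with 268 of 3165 and 294 of 3689 satellite glia in CPIP 1 and CPIP 2. In Sham 1 and Sham 2 it kept 352 of 3431 and 193 of 3489. Genes called in satellite glia (0) numbered 8 with DESeq2, 1 without the filter and 0 to 428 with 1 library left out, and members called stayed at 0. With a replicate block 0 genes and 0 members were called in satellite glia, 3 genes in the states and 53 in the other classes. The labels tie no replicate number to a shared litter, day or animal, and deviations of same-numbered libraries correlated at -0.12 over 12652 genes. Counting the Cdh19-Scn7a cluster as satellite glia, chosen after seeing the data, gave a median of -0.20 and 0 calls.

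Genes called over the states (0) numbered 9 with DESeq2, 263 without the filter and 0 to 1229 with 1 library left out, and members called numbered 1 without the filter (Fabp7 in the Pdk4 state) and 0 to 1. Over the other classes (6 genes) they numbered 15 with DESeq2, 286 without the filter and 104 to 1509 with 1 library left out. They numbered 2 at Leiden resolution 0.6 and 3 with members allowed in clustering, in which no cluster was named non-myelinating Schwann cells. Members called there numbered 1 without the filter, 1 with doublets kept (Fabp7 in macrophages in both) and 0 to 3. Genes called for the difference between satellite glia and non-myelinating Schwann cells (13) ran from 5 to 9. Gjc3 in myelinating Schwann cells turned to 0.17 at most 10% mitochondrial UMIs, on 65 to 202 cells per library. Fabp7 in the Pde7b cluster was -1.83 with DESeq2 and ran from -2.17 to -1.31. Reducing cells to 2000 UMIs gave 4.09 members per satellite glia cell. The cause of these changes was not tested.

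Each group has 2 libraries, and a test that did not pass does not show that a member did not differ. Slc1a2, and Aqp4 and Gjc3 outside their main classes, rest on few UMIs.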

Other observations

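Averaging each satellite glia cell's own CPM, in place of summing UMIs over cells, moved the mean level of Gjc3 by more than 1 SD between libraries, to 8.27 CPM, and of no other member. At most 10% mitochondrial UMIs, mean levels in satellite glia were 684 CPM for Kcnj10, 209 CPM for Gja1 and 2.18 CPM for Aqp4, against 797, 247 and 1.75 CPM with all kept cells. The limit left 193 to 352 satellite glia per library.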
